A study of Gallus gallus and Anas platyrhynchos and Coturnix japonica with 43 samples.

Results

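The genes described here, all called scaffold genes below, encode scaffold proteins of the striated muscle sarcomere and the actin-binding repeat protein XIRP1. The scaffold proteins are the Z-disc proteins ACTN2, LDB3, MYOZ1 and CSRP3 and the giant proteins TTN and NEB. The M-band proteins MYOM1 and MYOM2 and the intermediate filament protein DES complete the set. The genes were found as the spots whose annotation carries 1 of these 10 gene symbols. All 10 genes were present, on 12 of the 19200 spots of each array and as 10 of 6428 genes measured. ACTN2, NEB, TTN, MYOM1, MYOM2, MYOZ1, CSRP3 and XIRP1 each had 1 spot, DES had 2 spots of 1 clone, and LDB3 had 2 clones with 1 spot each.

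On each of 43 arrays of spotted chicken cDNA clones, RNA of 1 tissue sample, labelled with Cy3, competed with a Cy5-labelled chicken pool. The pool held equal parts of RNA from 4 chicken tissues, namely breast muscle, fat of the abdomen, hypothalamus and liver. The groups were chicken breast muscle and abdominal fat (4 arrays each), liver of White turkey, Japanese quail and duck (4 each), of American kestrel and Tree sparrow (3 each) and of chicken (4), and hypothalamus of White turkey, Japanese quail and duck (3 each) and of chicken (4). Chicken muscle, fat and liver came from control Ross x Cobb broiler cockerels aged 6 weeks, and chicken hypothalamus from males aged 9 weeks of a line selected for leanness. For the other birds the sources used here give neither age nor sex; kestrels and sparrows came from captive colonies. Line and age cannot be told apart from tissue where hypothalamus is compared with another chicken tissue, and neither can RNA extraction where muscle or fat (caesium chloride gradient) is compared with liver or hypothalamus (column kit). Muscle and fat shared breed, age and extraction method. Whether replicate arrays stand for different birds is not stated in the labels, so a p-value covers only the scatter of these samples, which may in part be technical.

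A sarcomere is bounded by Z-discs, where alpha-actinin cross-links the ends of the thin actin filaments. Titin spans from the Z-disc to the M-band in the middle, where myomesins tie the thick myosin filaments together, and nebulin runs along the thin filament. Desmin filaments join neighbouring Z-discs to one another and to the cell membrane. Breast muscle of the chicken is a fast skeletal muscle, and its fibres hold these proteins in large amounts.

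All values are log2 ratios to the chicken pool, likely sample over pool, with each array centred on its median. A value compares a sample with the pool and cannot be set against the value of another gene. Differences between groups come from limma's fit of 12 group means to all 43 arrays and are given with their standard error (SE). Calls required an adjusted p under 0.05, with Benjamini-Hochberg adjustment over all 6428 genes. In whole tissue, fewer muscle cells and less of a transcript per cell cannot be told apart.

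Arrays scattered widely: within a group the correlation between arrays over all clones had a median of 0.29 over 57 pairs and ran from -0.17 to 0.63. Hepatocyte markers had a median of 0.75 in chicken liver and neuron markers 0.69 in chicken hypothalamus, both above 0 as sample over pool would give. Of all 903 pairs of arrays 12 fell under -0.3, the lowest being -0.40 for a chicken hypothalamus and a chicken liver array, and 0 of the 12 joined arrays of the same tissue.

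Some arrays went against their labels in the muscle markers. The median of 9 measured skeletal fibre markers, contractile proteins and parvalbumin that are not among the 10 scaffold genes, was 1.03, 1.02 and 0.88 on chicken muscle replicates 1, 2 and 3, with 7 of 9 markers above 0 on each. The array labelled chicken muscle replicate 4 had -1.50, with 0 of 9 above 0. The array labelled sparrow liver replicate 1 had 1.22, with 6 of 9 above 0, against -1.18 and -1.79 on sparrow liver replicates 2 and 3. Of the 9 markers, TPM2 and PVALB were below 0 on all 4 chicken muscle arrays. TNNC2 had a mean of 0.32 in chicken muscle, against 0.23 in chicken liver and 1.12 in duck hypothalamus, so it did not set muscle apart. Hepatocyte markers had a median of -2.06 on sparrow liver replicate 1, against -0.90 and -1.41 on the other sparrow livers. These medians all lay within the range of chicken hypothalamus, -2.87 to -0.87, and kestrel livers had -1.63 to -1.14. On these chicken clones the markers thus do not set sparrow liver apart from other tissue. Earlier results of these data, which included muscle genes, had already put both arrays in doubt, together with duck hypothalamus replicate 3, whose SD over clones, 1.18, was the highest of all arrays. Values without these 3 arrays are therefore given beside the values of all arrays as descriptions, not in their place.

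**Figure D1:**
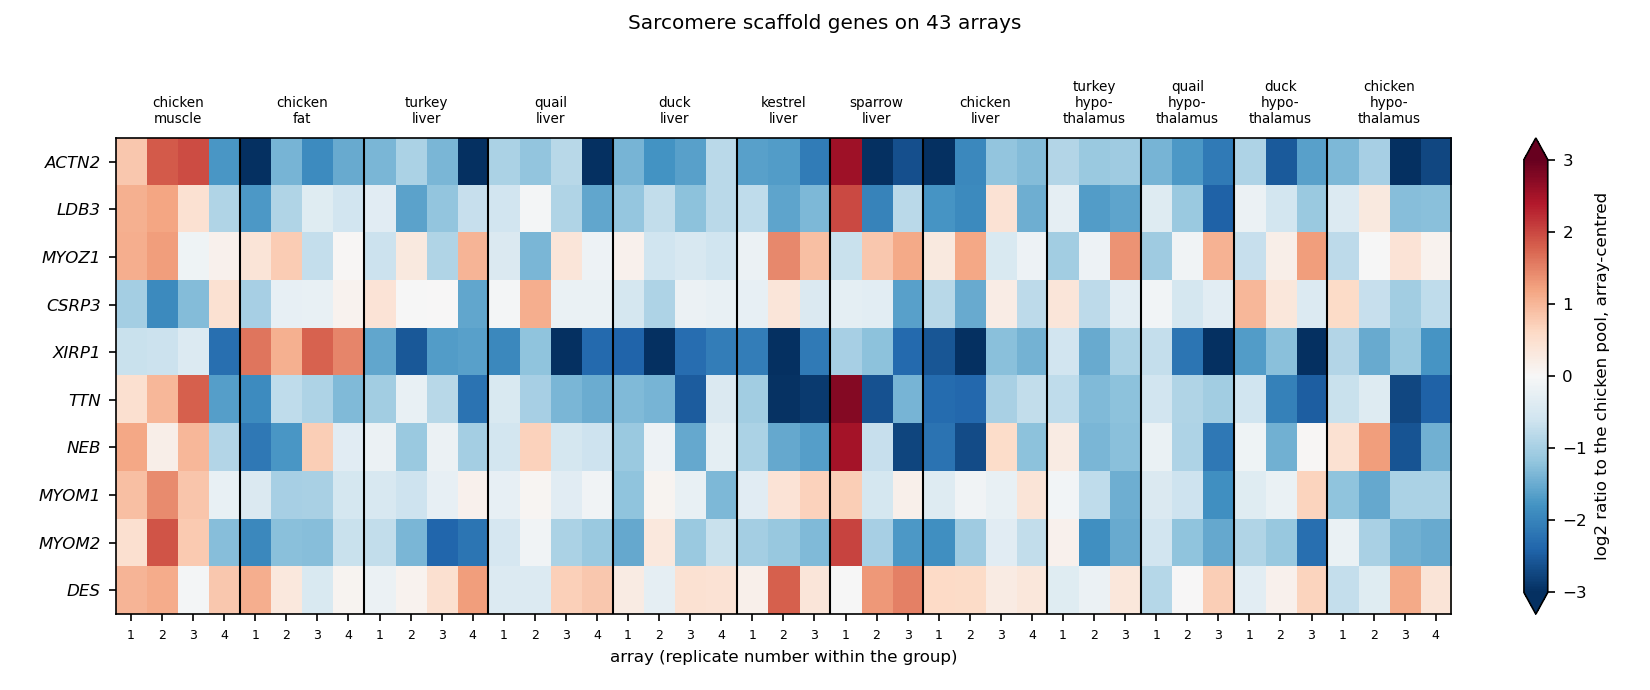
Log2 ratio to the chicken pool (colour, saturated beyond 3 either way) of the 10 scaffold genes (down) on each of the 43 arrays (across, grouped by bird and tissue, numbered by replicate). ACTN2, LDB3, TTN, NEB, MYOM1 and MYOM2 are above 0 on chicken muscle replicates 1, 2 and 3 (NEB only 0.17 on replicate 2) and on sparrow liver replicate 1, and below 0 on muscle replicate 4 (MYOM1 only -0.22), and XIRP1 is high on the 4 fat arrays.

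In chicken breast muscle, ACTN2 and MYOM1 were higher than in the other 3 chicken tissues together. They were the 2 of 10 scaffold genes called in that comparison with all arrays, where 0.482% of all genes were called higher. An unadjusted p under 0.05 was found for 6 of the 10, against 7.05% of all genes. The difference was above 0 for 8 of the 10 genes, with a median of 1.33 over the 10 and -0.06 over all genes. No scaffold gene was called lower in muscle, against 0.109% of all genes.

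ACTN2 is the sarcomeric alpha-actinin that cross-links thin filaments at the Z-disc. Its values were 0.82, 1.85, 1.95 and -1.75 on muscle replicates 1 to 4, against -3.65, -1.39, -1.89 and -1.50 in fat, -3.17, -1.94, -1.18 and -1.30 in liver, and -1.35, -1.0, -3.13 and -2.73 in hypothalamus. Muscle replicates 1, 2 and 3 lay above every other chicken array, and muscle replicate 4 lay among them. Muscle exceeded the mean of the other tissues by 2.73 (SE 0.65, adjusted p = 0.034 by limma), the 8th largest of 6428 differences. Against single tissues the difference was 2.82 for fat (adjusted p = 0.078), 2.61 for liver (0.1) and 2.77 for hypothalamus (0.13), none of them called.

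MYOM1, the myomesin of the M-band that binds titin and myosin, had 0.90, 1.41, 0.84 and -0.22 in muscle. It had -0.43, -1.01, -0.98 and -0.53 in fat, -0.39, -0.11, -0.23 and 0.38 in liver, and -1.21, -1.54, -0.94 and -0.95 in hypothalamus. Only muscle replicate 4 overlapped the other tissues, and it overlapped liver alone. The difference from the other tissues was 1.39 (SE 0.30, adjusted p = 0.014 by limma). MYOM1 was also called higher in muscle than in hypothalamus (1.89, SE 0.37, adjusted p = 0.017) and than in fat (1.47, SE 0.37, adjusted p = 0.033), but not than in liver (0.82, SE 0.37, adjusted p = 0.6). It was the 1 scaffold gene called higher in each of these 2 comparisons, where 0.124% and 0.373% of all genes were called higher. None was called lower than in hypothalamus, against 0.109% of all genes.

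TTN, titin, had 0.49, 1.01, 1.80 and -1.65 in muscle, and its values on the 12 other chicken arrays ran from -2.72 to -0.38. MYOM2, the second myomesin, which marks the M-bands of fast fibres in mammals, had 0.47, 1.90, 0.78 and -1.27 in muscle and between -1.93 and -0.20 elsewhere in chicken. LDB3, also called ZASP or Cypher, a PDZ and LIM domain protein that binds alpha-actinin at the Z-disc, had 1.07, 1.19, 0.46 and -0.90 in muscle and between -1.92 and 0.44 elsewhere. For all 3 genes, muscle replicates 1, 2 and 3 lay above the 12 other chicken arrays and replicate 4 did not. Their differences from the other tissues were 1.87 (SE 0.59, adjusted p = 0.23) for TTN, 1.57 (SE 0.48, adjusted p = 0.18) for MYOM2 and 1.36 (SE 0.47, adjusted p = 0.33) for LDB3, not called.

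NEB, nebulin, a thin filament protein of skeletal muscle, had 1.16, 0.17, 0.98 and -0.89 in muscle. It had -2.14, -1.75, 0.74 and -0.34 in fat, -2.21, -2.68, 0.56 and -1.24 in liver, and 0.46, 1.26, -2.58 and -1.45 in hypothalamus. The groups overlapped even without muscle replicate 4, since liver replicate 3 and hypothalamus replicate 2, among others, lay above muscle replicate 2. The difference was 1.30 (SE 0.64, adjusted p = 0.7). NEB's spread of 1.75 (SD) over the 4 hypothalamus arrays was wider than its difference.

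MYOZ1 and DES in muscle overlapped the other tissues. MYOZ1, myozenin or calsarcin-2, a Z-disc protein of fast fibres that binds calcineurin, had 1.09, 1.26, -0.13 and 0.14 in muscle, within the range of -0.79 to 1.16 elsewhere in chicken except for replicate 2. DES, desmin, had 1.02, 1.11, -0.05 and 0.80 in muscle and between -0.73 and 1.13 elsewhere. The differences were 0.50 for MYOZ1 (95% interval -0.36 to 1.37, adjusted p = 0.9) and 0.45 for DES (-0.25 to 1.16, adjusted p = 0.89). The 2 DES spots, of 1 clone, correlated at 0.36 over the 43 arrays, had opposite signs on 18 of them and differed by a median of 0.66, which is larger than the difference sought. The 2 LDB3 clones correlated at 0.73 and had opposite signs on 5 arrays. The first exceeded the other tissues by 1.01 and the second by 1.72 in muscle. On the first clone alone, muscle replicate 3 (-0.14) lay below liver replicate 3 (0.21).

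CSRP3, the muscle LIM protein of the Z-disc, was not high in muscle. Its values were -1.03, -1.91, -1.31 and 0.45 on muscle replicates 1 to 4, against a range of -1.51 to 0.58 on the 12 other chicken arrays. Unlike ACTN2 and LDB3, it was below 0 on replicates 1, 2 and 3 and above 0 on replicate 4. Muscle had the lowest mean of the 12 groups, -0.95 ± 1.00 (SD, n = 4), and duck hypothalamus the highest, 0.31 ± 0.71 (SD, n = 3). The difference of muscle from the other tissues was -0.43 (SE 0.37, adjusted p = 0.9), not called. In mammals CSRP3 is a gene of the heart and of slow fibres. The 2 measured cardiac and slow fibre markers, MYL2 and TNNC1, had medians of 1.11, 0.13, 0.42 and -0.47 on the 4 muscle arrays, but the 2 genes differed. TNNC1 had a mean of 0.56 in muscle, against -1.95 in fat, -2.15 in liver and -1.91 in hypothalamus. MYL2 had a mean of 0.04 in muscle, against -0.09 in fat, -0.26 in liver and 0.14 in hypothalamus. TNNC2, on the skeletal fibre list, had 0.32 in muscle, -0.13 in fat, 0.23 in liver and -0.46 in hypothalamus. Fibre type was not tested.

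**Figure D2:**
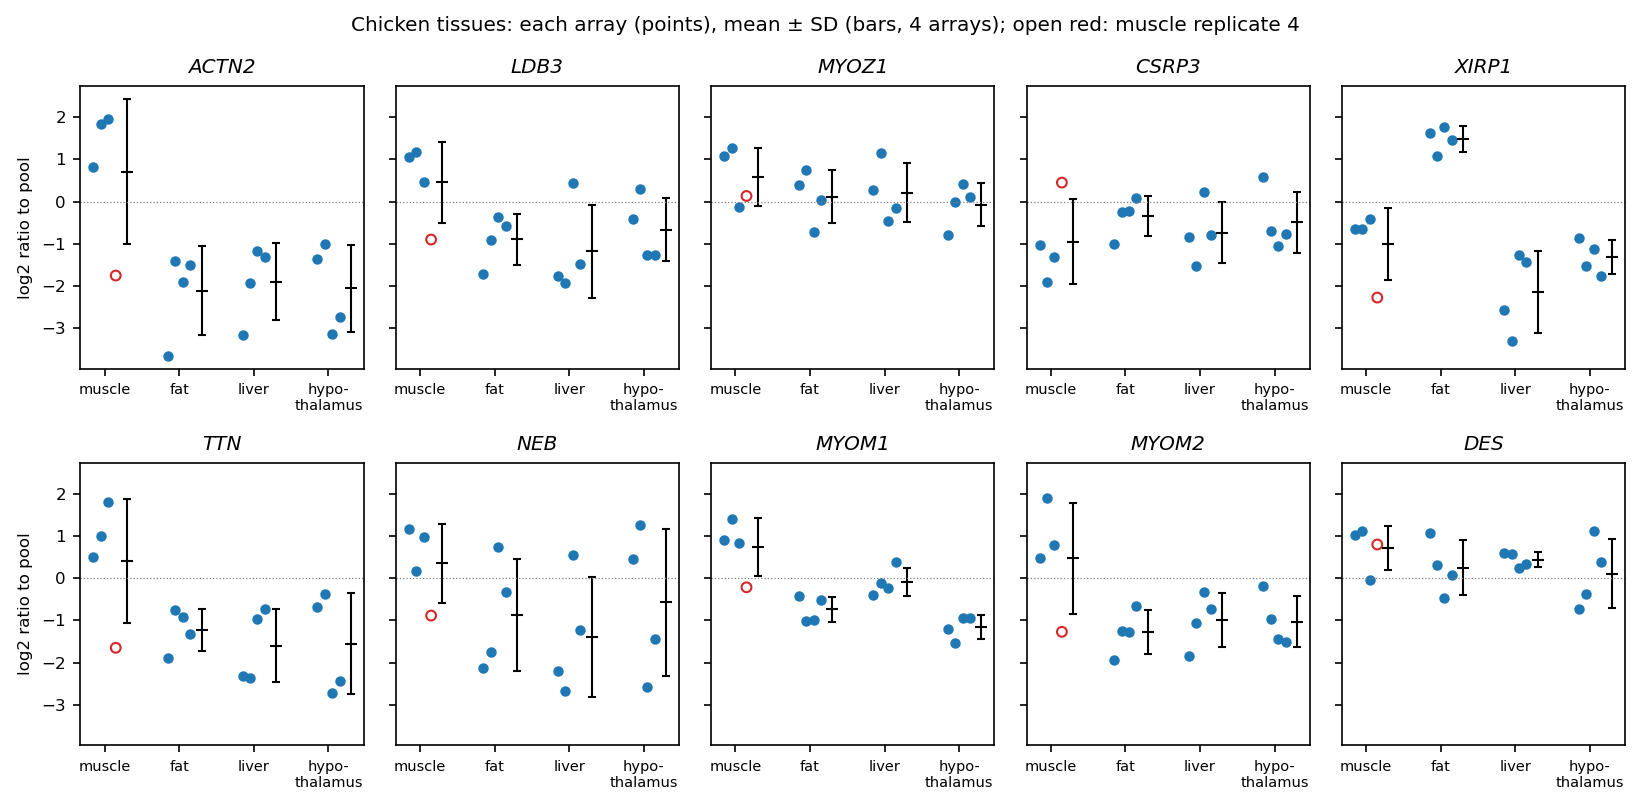
Log2 ratio to the pool of each scaffold gene on every chicken array (points; open red, muscle replicate 4) with the mean ± SD of 4 arrays (bars), muscle, fat, liver and hypothalamus from left to right. For ACTN2, LDB3, TTN, MYOM1 and MYOM2 the 3 filled muscle points lie above the other 12 arrays, and for XIRP1 the fat arrays, between 1.07 and 1.78, lie above all others.

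How much of this can be called depended on single arrays. With all 4 muscle arrays, 0 of 10 scaffold genes had muscle entirely above the other 12 chicken arrays (0.0933% of all genes did). On the array labelled muscle replicate 4, 7 of 10 scaffold genes lay below the other 3 muscle arrays, as did 24.3% of all genes: ACTN2, NEB, TTN, MYOM1, MYOM2, LDB3 and XIRP1. Without it, the muscle arrays lay above the other 12 chicken arrays for 5 scaffold genes, ACTN2, TTN, MYOM1, MYOM2 and LDB3 (the last as the mean of its clones), and for 1.68% of all genes. Blood markers moved with it as well: the 2 measured haemoglobin genes had a median of 0.55 on replicate 4, against -0.85, -1.32 and -0.86 on replicates 1, 2 and 3. What part such differences in tissue content have in these values was not tested.

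Muscle genes were among the earlier results that put muscle replicate 4 in doubt. Calls and p-values without it, here and below, are therefore descriptions and not independent evidence of a higher level in muscle. In the fit without muscle replicate 4, the genes called higher in muscle than in the other tissues were 4 of 10, with 1.04% of all genes called higher. They were ACTN2 (3.56, SE 0.68, adjusted p = 0.0012), TTN (2.56, SE 0.63, adjusted p = 0.022), MYOM1 (1.71, SE 0.32, adjusted p = 0.00096) and MYOM2 (2.15, SE 0.50, adjusted p = 0.013), while LDB3 had 1.81 (SE 0.51, adjusted p = 0.072). CSRP3 then differed by -0.90 (SE 0.38, adjusted p = 0.45), and XIRP1 had 0.08, against -0.34 with all arrays, neither called. Leaving out muscle replicate 1, 2 or 3 instead, and keeping replicate 4, gave 0 called scaffold genes each time. The share of all genes called in those fits is not given here, so these counts cannot be read as particular to the scaffold genes. ACTN2 then had 2.70, 2.36 and 2.32 (adjusted p = 0.22, 0.42 and 0.21), and MYOM1 1.34, 1.17 and 1.36 (adjusted p = 0.18, 0.32 and 0.1). Leaving out fat replicate 1, liver replicate 1 or hypothalamus replicate 3 or 4 also ended the ACTN2 call, with differences between 2.56 and 2.66 and adjusted p between 0.052 and 0.057. Over all 27 alternatives ACTN2 was called in 19, with a difference between 2.32 and 3.56 and adjusted p between 6.9e-06 and 0.42, and MYOM1 in 24, between 1.17 and 1.71 and with adjusted p between 0.00042 and 0.32. TTN was called in 3 (adjusted p between 0.00077 and 1) and MYOM2 in 5 (0.00073 to 1). Without all 3 arrays in doubt, LDB3 was called as well (adjusted p = 0.014, over alternatives 0.014 to 1), making 5 of 10, with 1.17% of all genes called higher. In that fit, with limma's p adjusted over all clones, the second LDB3 clone was called (2.26, adjusted p = 0.0052). The first was not (1.37, adjusted p = 0.22). The sparrow and duck arrays left out in that fit lie outside this comparison, and the difference of LDB3 over its clones stayed at 1.81.

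Compared with liver alone, 0 scaffold genes were called in muscle with all arrays (0.342% of all genes were called higher and 1.38% lower), though 7 had an unadjusted p under 0.05, against 6.5% of all genes. Without muscle replicate 4, ACTN2 (3.43, adjusted p = 0.0084) and TTN (2.70, adjusted p = 0.037) were called higher, as were 0.871% of all genes. Compared with hypothalamus, ACTN2 (3.59, adjusted p = 0.013) joined MYOM1 (2.21, adjusted p = 0.00089) in that fit, where 0.685% of all genes were called higher. Compared with fat, ACTN2 (3.65, adjusted p = 0.0064), MYOM1 (1.79, adjusted p = 0.005) and MYOM2 (2.33, adjusted p = 0.027) were called higher without that array, with 0.902% of all genes. Over 19 alternatives ACTN2 was called in 5 against liver (adjusted p between 0.00022 and 0.48), in 4 against hypothalamus (0.00017 to 0.55) and in 5 against fat (0.00011 to 0.36). MYOM1 was called in 15 of 19 against hypothalamus (0.00017 to 0.18), where leaving out muscle replicate 1, 2 or 3 or hypothalamus replicate 2 ended the call with differences between 1.67 and 1.86. It was called in 10 of 19 against fat (0.0024 to 0.22), where leaving out muscle replicate 1, 2 or 3 or any 1 of the fat arrays ended the call with differences between 1.24 and 1.57.

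**Figure D3:**
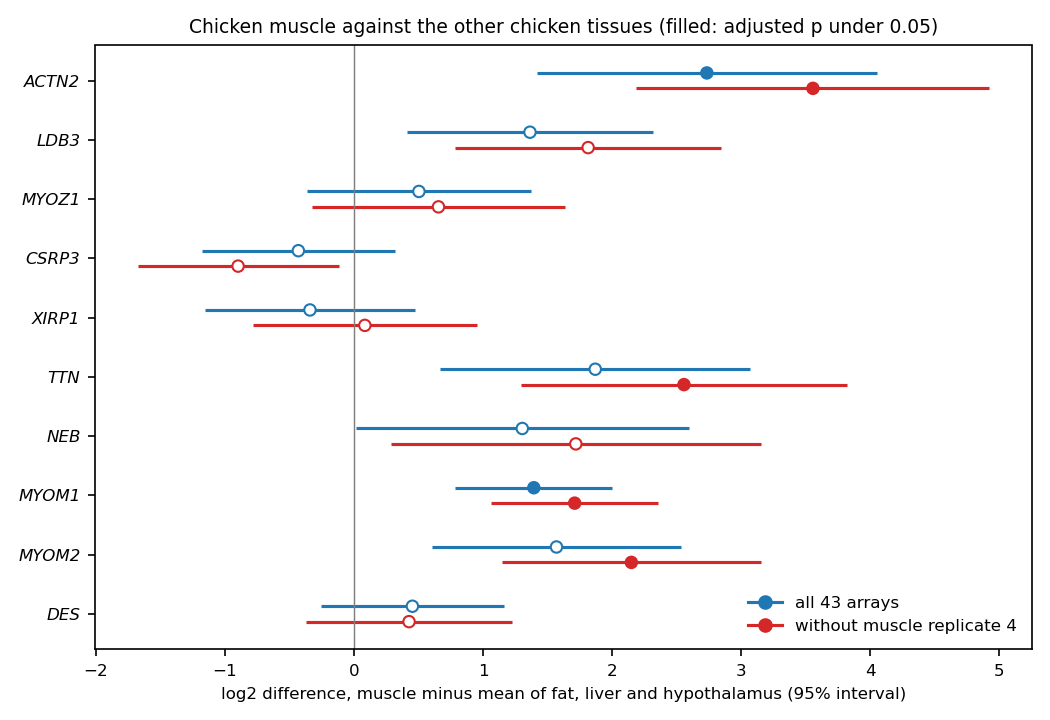
Difference in log2 ratio of chicken muscle from the mean of fat, liver and hypothalamus for each scaffold gene (points, filled where the adjusted p was under 0.05) with its 95% interval (lines), with all 43 arrays (blue) and without muscle replicate 4 (red). ACTN2 and MYOM1 are filled in both, TTN and MYOM2 only without that array, and CSRP3 lies below 0 in both.

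XIRP1 followed another pattern. It encodes Xin, an actin-binding repeat protein first described in the developing chick heart and known from intercalated discs and from the tendon ends and repair sites of skeletal fibres. In abdominal fat its values were 1.62, 1.07, 1.78 and 1.47. They were -0.66, -0.64, -0.42 and -2.27 in muscle, -2.57, -3.30, -1.26 and -1.43 in liver, and -0.87, -1.52, -1.11 and -1.77 in hypothalamus. All 4 fat arrays lay above the 39 other arrays of the series, of which the highest was muscle replicate 3, and 0.451% of all genes had fat so placed.

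XIRP1 in fat exceeded liver by 3.62 (SE 0.49, adjusted p = 7.2e-06), the largest of 6428 differences, and hypothalamus by 2.80 (SE 0.49, adjusted p = 0.0011). It was the 1 scaffold gene called in both comparisons, where 0.933% and 0.7% of all genes were called higher in fat. No scaffold gene was called lower in fat, against 1.46% of all genes for liver and 0.156% for hypothalamus. Muscle lay below fat by -2.48 (SE 0.49, adjusted p = 0.0064), where 0.778% of all genes were called lower in muscle. XIRP1 was called in these 3 comparisons under each of 19 alternatives, with adjusted p of at most 0.00016 for fat minus liver, 0.012 for fat minus hypothalamus and 0.034 for muscle minus fat. Without muscle replicate 4 muscle minus fat was -2.06 (SE 0.51, adjusted p = 0.022), with 0.653% of all genes called lower. The high value in fat was known from these data when the gene was chosen, so these p-values are not independent evidence of it, and all of them rest on 1 spot. No clone sequence was at hand, so the identity of this spot as XIRP1 rests on its annotation and was not tested.

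The other 9 scaffold genes showed no such level in fat. For ACTN2 fat had the lowest mean of the 12 groups with all arrays, -2.11 ± 1.05 (SD, n = 4), while sparrow liver had -2.93 (n = 2) without replicate 1. Fat minus liver ran from -0.65 for MYOM1 to 0.52 for NEB among these 9 genes, and fat minus hypothalamus from -0.30 to 0.42, none of them called. Skeletal fibre markers in fat had medians between -2.55 and -1.07 on the 4 arrays, below those of muscle replicates 1, 2 and 3. Smooth muscle and pericyte markers had medians between -0.40 and 0.17 in fat, against 0.02 to 0.35 in muscle, -0.57 to -0.24 in liver and -0.26 to 0.01 in hypothalamus. Adipocyte markers lay between 0.26 and 1.11 in fat, against -1.93 to -0.89 in muscle, -1.26 to -0.43 in liver and -1.56 to -0.73 in hypothalamus. Fibroblast and matrix markers lay between 0.14 and 1.73 in fat, against -1.62 to -0.25 in muscle, -2.15 to -1.05 in liver and -1.94 to -0.29 in hypothalamus. The adipocyte and matrix medians were thus higher in fat than in the other 3 tissues, as XIRP1 was, while the smooth muscle medians overlapped them. FABP4, PLIN1, DGAT2, PPARG, G0S2 and RETSAT had higher means in fat, though PPARG and G0S2 overlapped the other tissues. PPARG had a lowest value of -0.06 in fat and a highest of 0.43 in muscle and 0.50 in hypothalamus. G0S2 had a lowest value of 0.05 in fat and a highest of 0.08 in liver. ADIPOQ was not higher in fat, with means of -0.20 in fat, -0.10 in muscle, -0.34 in liver and 0.09 in hypothalamus. The part of these cell types in the XIRP1 values was not tested.

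Over the 12 group means, the genes outside the scaffold set most like XIRP1 were SPARC (r = 0.97), a matrix-binding glycoprotein, ZBTB17 (0.96), a zinc finger transcription factor, and CCDC80 (0.95), a secreted protein of adipose tissue in mammals. SPARC had a mean of 1.25 in fat and -0.81 in muscle, with -1.94 to -0.51 in the other groups. ACTN2 was most like AK1 (0.90), the cytosolic adenylate kinase of muscle, MYH1B (0.90), a fast myosin heavy chain, and TPI1 (0.90), a glycolytic enzyme. LDB3 was most like TNNC1 (0.96), FBXO11 (0.93) and TNNI2 (0.92), and MYOM2 like BZW1 (0.92), MYH1B (0.91) and CMYA5 (0.89). TTN was most like PCYT1A (0.92), SLC25A4 (0.92) and MYH1E (0.88). MYOM1 was most like FXR1 (0.91), ERI3 (0.91) and RRBP1 (0.89), none of them a contractile protein. NEB was most like IMPA2 (0.86), MACROD2 (0.85) and CSNK1G1 (0.85). Without the 3 arrays in doubt, MACROD2 had 0.46 and CSNK1G1 0.47. In the same setting RRBP1 had 0.73, IMPA2 and ERI3 0.76 each, and SLC25A4 and FBXO11 0.78 each. The other genes named in this paragraph then had between 0.85 (FXR1) and 0.96 (SPARC). DES was most like SLC32A1 (0.93), MYOZ1 like NEBL (0.91), a nebulin relative, and CSRP3 like SLC25A10 (0.89). The 12 means share the pool and the arrays, and a few high groups can carry such a correlation, which was not tested.

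**Figure D4:**
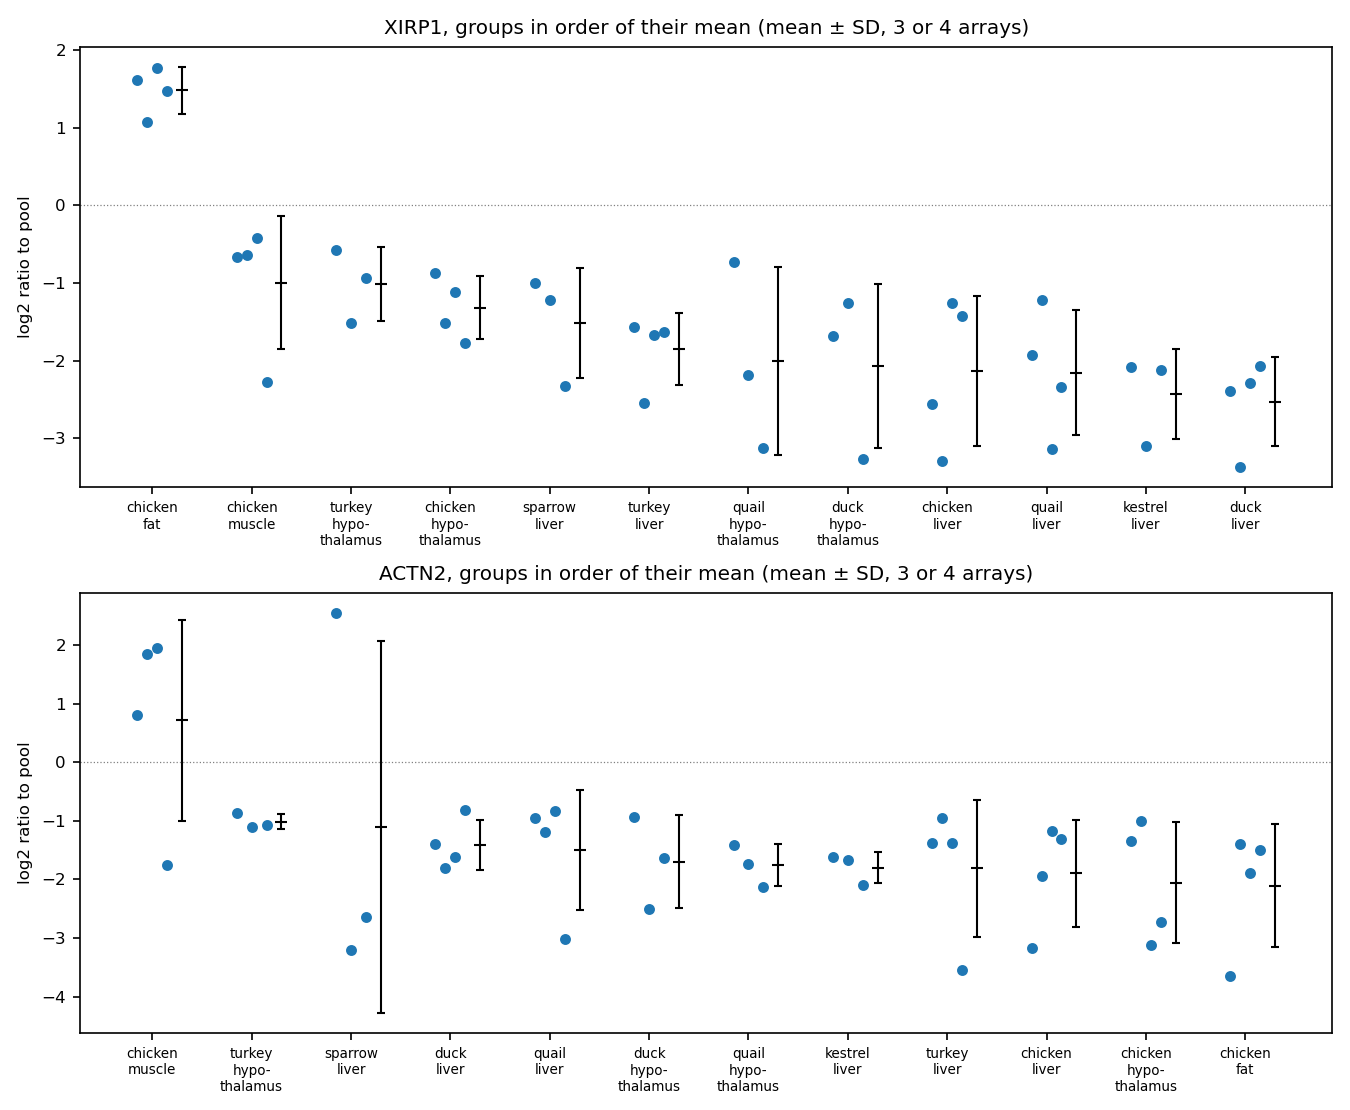
Log2 ratio to the pool of XIRP1 (top) and ACTN2 (bottom) on each array (points) with the mean ± SD of 3 or 4 arrays (bars), in the 12 groups ordered by their mean. Fat stands 2.48 above the next group for XIRP1 and muscle 1.73 above the next for ACTN2, while the remaining groups follow each other in small steps.

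In the order of the 12 group means with all arrays, 2 steps were larger than the SD pooled over groups. ACTN2 in muscle, 0.72 ± 1.72 (SD, n = 4), stood 1.73 above turkey hypothalamus, -1.01 ± 0.13 (SD, n = 3), with a pooled SD of 1.24. XIRP1 in fat, 1.49 ± 0.30 (SD, n = 4), stood 2.48 above muscle, -0.998 ± 0.86 (SD, n = 4), with a pooled SD of 0.73. Muscle had the highest mean also for NEB, TTN, MYOM1, MYOM2 and LDB3, but its step down to the next group, between 0.47 and 0.82, was then smaller than the pooled SD of each. Without muscle replicate 4 the step below muscle exceeded the pooled SD for ACTN2 (2.55, pooled SD 1.15), TTN (1.51, 1.06), MYOM1 (0.79, 0.49), MYOM2 (1.28, 0.82) and LDB3 (1.18, 0.85), but not for NEB (1.02, 1.20). The step of CSRP3 down to muscle, its lowest group, was also larger then (0.67, 0.61), and XIRP1 in fat stood 2.06 above muscle (pooled SD 0.70). Without all 3 arrays in doubt the steps below muscle were 1.94 for TTN, 1.72 for MYOM2 and 1.27 for LDB3. The step of CSRP3 down to muscle was then smaller, from -0.97 in sparrow liver (n = 2) to -1.42 in muscle (n = 3). DES was highest in sparrow liver, 0.93 ± 0.83 (SD, n = 3), and MYOZ1 in kestrel liver, 0.73 ± 0.82 (SD, n = 3), with all steps smaller than the pooled SD. Without the 3 arrays MYOZ1 was highest in sparrow liver (0.97, n = 2), ahead of muscle (0.74, n = 3) and kestrel liver, and DES in sparrow liver (1.41, n = 2) stood 0.64 above kestrel liver, with a pooled SD of 0.61. Duck liver had the lowest mean for XIRP1, -2.53 ± 0.58 (SD, n = 4).

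The means of ACTN2, NEB, TTN, MYOM2 and LDB3 moved together, with pairwise correlations of 0.66 to 0.90 over the 12 groups, and of 0.79 to 0.91 without the 3 arrays in doubt. MYOM1 correlated with these 5 genes at 0.30 to 0.59, XIRP1 at 0.01 to 0.27 and CSRP3 at -0.62 to -0.19. DES correlated with them at 0.20 to 0.49 with all arrays and at -0.25 to 0.07 without the 3 arrays. This grouping was made after the values were seen and is a description.

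RNA of 5 other birds was hybridised to the same chicken clones, so a difference from chicken can lie in the tissue or in how well the clone binds another species, which cannot be told apart. For the scaffold genes no difference was called: 0 of 10 in each of 5 comparisons of liver and 3 of hypothalamus, in either direction. Of all genes, 0.0467% were called for turkey liver, 0.513% for quail, 0.762% for duck, 1.21% for kestrel and 0.793% for sparrow, and in hypothalamus 0.14% for turkey, 0.0467% for quail and 0.327% for duck. The smallest unadjusted p in liver was 0.057. With all arrays, 1 gene in hypothalamus had an unadjusted p under 0.05, MYOM1 in duck (8.82% of all genes had one in that comparison). It had -0.35, -0.21 and 0.67 in duck against -1.21, -1.54, -0.94 and -0.95 in chicken. The duck mean of MYOM1 lay above the chicken mean by 1.20 (SE 0.40, adjusted p = 0.28), and by 0.88 (SE 0.41, adjusted p = 1) without the 3 arrays in doubt. In the fit without them CSRP3 had the largest difference of the 10 genes, 1.15, not called. Its means were then 0.67 in duck (n = 2) and -0.48 in chicken (n = 4).

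In sparrow liver the scaffold genes split by array. ACTN2 had 2.55 on replicate 1, against -3.21 and -2.64 on replicates 2 and 3. TTN had 2.76, against -2.61 and -1.39, and NEB 2.49, against -0.70 and -2.75. Sparrow replicate 1 lay above all 38 other arrays outside chicken muscle for 6 of 10 scaffold genes, ACTN2, NEB, TTN, MYOM1, MYOM2 and LDB3, and for 2.22% of all genes. Its values of ACTN2, TTN, NEB, MYOM2 (2.04) and LDB3 (1.98) were also above every chicken muscle array, and that of MYOM1 (0.75) was not. The share of all genes above every muscle array was not counted. CSRP3 (-0.30), DES (-0.02), MYOZ1 (-0.68) and XIRP1 (-1.01) were not high there.

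With all arrays, sparrow liver minus chicken liver was above 0 for 9 of 10 scaffold genes, with a median of 0.69. Without the 3 arrays in doubt it was above 0 for 3 of 10, with a median of -0.23, and TTN gave -0.40, against 1.18 with all arrays. Neither fit called a scaffold gene, and the second called 1.29% of all genes. In the other birds the medians of the 10 differences from chicken liver were 0.15 in turkey, 0.36 in quail, 0.19 in duck and 0.06 in kestrel.

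**Figure D5:**
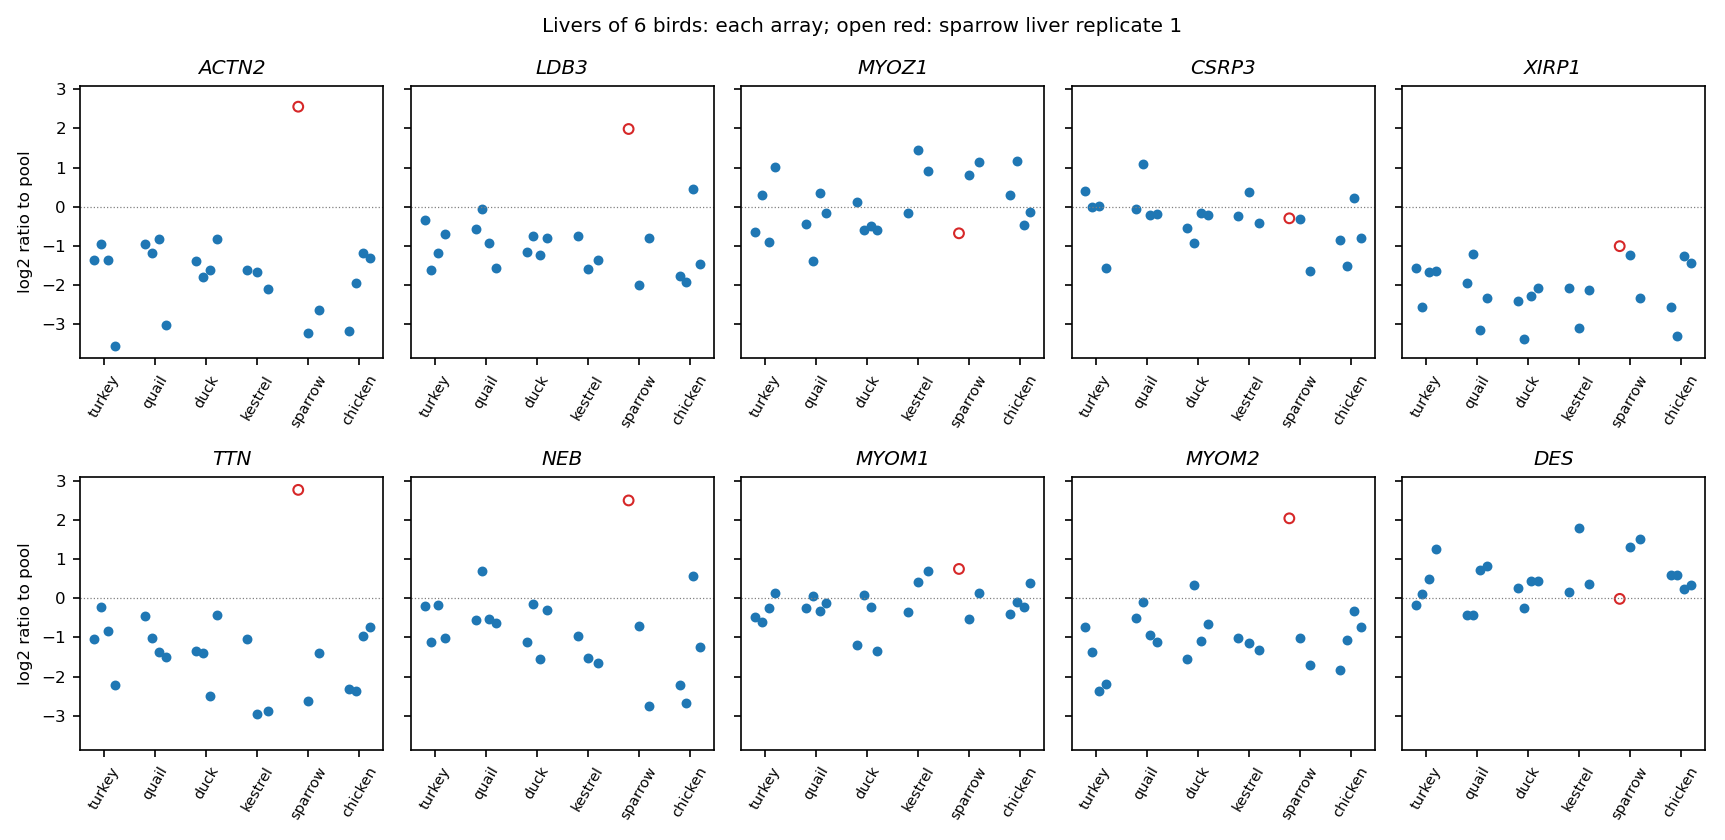
Log2 ratio to the pool of each scaffold gene on every liver array (points; open red, sparrow liver replicate 1) of turkey, quail, duck, kestrel, sparrow and chicken. The open point lies above all other livers for ACTN2, LDB3, TTN, NEB, MYOM1 and MYOM2, and within the range of the others for MYOZ1, CSRP3 and DES; for XIRP1 it is the highest liver at -1.01, next to -1.22 on quail liver replicate 2.

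Liver and hypothalamus, neither of them a striated tissue, were also set against each other. Of 10 genes 0 were called between liver and hypothalamus in chicken, turkey, quail or duck, where 1.51%, 0.685%, 0.56% and 0% of all genes were called. MYOM1 had the smallest p in chicken, with liver above hypothalamus by 1.07 in the mean (SE 0.37, adjusted p = 0.19). In quail the difference was 0.81 (SE 0.40, adjusted p = 0.57) and in turkey 0.47 (SE 0.40, adjusted p = 0.95). In duck it was -0.71 (SE 0.40, adjusted p = 0.93), and -0.40 (SE 0.41, adjusted p = 1) without the 3 arrays in doubt, of which duck hypothalamus replicate 3 enters here. The duck difference minus the chicken difference was -1.79 (SE 0.54, adjusted p = 0.53), and -1.47 (SE 0.53, adjusted p = 1) without them. None of the 30 differences of this kind, 10 genes in turkey, quail and duck, was called (0%, 0.0156% and 0.0311% of all genes were called), and that for duck MYOM1 was the only one with an unadjusted p under 0.05, which 5.71% of all genes had for duck.

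Among other genes of the sarcomere and its supports, 40 of 64 listed were measured, and in muscle minus the other tissues their median was 0.22, against -0.06 over all genes. Only MYBPC2, the fast myosin-binding protein C, was called (0.92, SE 0.22, adjusted p = 0.032), 1 of 40 where 0.482% of all genes were called higher. An unadjusted p under 0.05 was found for 6 of the 40, against 7.05% of all genes. The MYBPC2 values in muscle were 1.02, 1.12, 0.89 and 0.21, of which replicates 1, 2 and 3 lay above the other 12 chicken arrays and replicate 4 did not. On the arrays of other birds MYBPC2 ran from -0.70 (turkey hypothalamus replicate 1) to 1.03 (quail liver replicate 3), so those arrays overlapped muscle. Of 19 measured Z-disc partners, such as MYOT, FLNC, ANKRD1 and TRIM63, 0 were called and 1, ANKRD1, had an unadjusted p under 0.05 (0.60, adjusted p = 0.63). Of 3 measured M-band and titin-linked genes MYBPC2 was called, of 4 thin filament caps 0 and of 14 filament, costamere and chaperone genes 0. Without the 3 arrays in doubt, MYBPC2 (1.12, adjusted p = 0.0046), the small heat shock proteins HSPB1 (1.11, adjusted p = 0.044) and HSPB8 (0.92, adjusted p = 0.014), and the costamere protein CMYA5 (1.72, adjusted p = 0.026) were called, 4 of 40 where 1.17% of all genes were called higher. With all arrays HSPB1 had 0.76 (adjusted p = 0.41), HSPB8 0.75 (adjusted p = 0.094) and CMYA5 1.23 (adjusted p = 0.35). MYBPC2 was also called in muscle minus liver (1.10, adjusted p = 0.015), where 0.342% of all genes were called higher. In fat minus liver and in fat minus hypothalamus 0 of the 40 were called, against 0.933% and 0.7% of all genes called higher and 1.46% and 0.156% called lower.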

How the data were processed

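Per the labels, each array carried a Cy3-labelled sample and a Cy5-labelled chicken pool, with no dye swap. The deposited value of each spot was taken as a linear ratio of the dyes, since all lie above 0 and array medians ran from 0.535 to 1.83. What the authors did before deposit (scanner, background, normalization, numerator) is not given in the sources used here, although deposited medians differ between arrays. The files hold ratios without intensities, which leaves signal over background unknown; precision is limited by how many arrays there were.

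Ratios were put on the log2 scale, centred per array on the median, and averaged over spots of a clone and then over clones of a gene (6428 genes from 10601 spots with 1 symbol; 8599 spots were unnamed here). Of the 10 genes 9 matched the current chicken gene table by gene number and NEB by symbol. Group means (12, over 43 arrays) and their contrasts came from limma 3.58.1 under R 4.3.3, with eBayes and Benjamini-Hochberg adjustment over all genes. The code was tested on simulated data. Matplotlib 3.10.9 drew the plots.

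The members, lists, and arrays in doubt were chosen with earlier results of these data known. All 10 genes were reported. Up to 6 called genes of the other sarcomere list were to be named per contrast, and the 3 genes most like a member were those with the highest Pearson correlation over group means. MYOT, FLNC and TRIM63 were named as examples after their values were seen. Alternatives were no centring, centring per print block, equal spread per array, quantile normalisation, median over clones, clones as the unit, array weights, robust eBayes, chicken arrays only, a replicate block, 3 arrays left out together and each array left out in turn. The title was followed for quail hypothalamus replicate 3, which its description numbers 19.

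Replicate numbers were checked by correlating deviations from group means. Same-numbered arrays correlated above 0.1 in every pair for 6 of 66 pairs of groups. Among them were muscle with fat (mean 0.23) and turkey liver with turkey hypothalamus (mean 0.39). Groups of different species were also among them, such as quail with turkey hypothalamus (mean 0.48) and chicken hypothalamus with turkey liver (mean 0.35). The labels give no pairing, and these correlations cannot show one. The block changed no count of called scaffold genes.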

Additional observations from a re-analysis of the deposited data

Results flagged for a closer look

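In the groups of 4 arrays, 70 in all over the 10 scaffold genes, 7 held an array far from the other 3. The rule flags about 1 in 20 for independent normal values. These groups share their arrays over the 10 genes, and the share of all genes flagged is not given here. The count therefore cannot be read as particular to the scaffold genes. In chicken muscle, XIRP1 had -2.27 on replicate 4, against -0.66 to -0.42 on the others. ACTN2 had -3.54 on turkey liver replicate 4, against -1.37 to -0.95, and -3.02 on quail liver replicate 4, against -1.18 to -0.83. On quail liver replicate 2, NEB had 0.69, against -0.62 to -0.52, and CSRP3 1.08, against -0.21 to -0.05. MYOZ1 had 0.13 on duck liver replicate 1, against -0.60 to -0.49, and XIRP1 had -2.55 on turkey liver replicate 2, against -1.67 to -1.57.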

How the results depend on the processing

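For muscle minus the other tissues, where 2 scaffold genes were called, equal spread per array gave 1 and array weights and the fit without 3 arrays 5 each; leaving out single arrays gave 0 to 4. Over all genes the first 3 of these fits called 31, 84 and 87, against 38 with the settings of the report. Counts over all genes with single arrays left out are not given in this section, so the counts of scaffold genes there have no share beside them. For muscle minus liver (0 called), block centring and quantile normalisation gave 1 each, array weights and the fit without 3 arrays 4 each, and single arrays 0 to 2, with 122, 179, 219 and 162 calls over all genes for the first 4, against 111. For muscle minus hypothalamus (1 called), quantile normalisation gave 2, array weights 3, the fit without 3 arrays 4 and single arrays 0 to 2, with 103, 129 and 77 calls over all genes for the first 3, against 15. For muscle minus fat (2 called), no centring and the clone level gave 1 each, quantile normalisation 4, the fit without 3 arrays 5 and single arrays 1 to 4. All genes gave 40 calls without centring, 156 of all clones, 154 and 113, against 74. Of the counts that were 0, array weights gave 1 for the other birds against chicken, 1 for liver minus hypothalamus and 1 for the differences between birds; equal spread and quantile normalisation gave 1 each for liver minus hypothalamus. Each was MYOM1, and array weights called 649 of all genes for duck minus chicken hypothalamus (21 before), 343 for chicken liver minus hypothalamus (97 before) and 179 for the duck difference (2 before); equal spread and quantile normalisation called 195 and 221 in chicken liver minus hypothalamus. The cause was not tested. The fits without arrays hold fewer samples, and each fit takes the spread of a gene from all groups together. Arrays outside a comparison therefore enter its SE. For ACTN2 in fat minus liver, with clones as the unit, the difference was -0.21 with all arrays and without the 3 arrays. Its SE was 0.76 with all arrays and 0.55 without the 3, none of which is a fat or chicken liver array. XIRP1 in fat was called under every alternative run. In muscle minus the other tissues, 8 of 10 genes lay above 0 under each of the 5 scalings. Without centring, the median over all genes moved by more than 0.1 in several contrasts, to 0.21 for muscle minus hypothalamus and 0.14 for fat minus hypothalamus.

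The replicate block kept each count as it was: 2, 0, 1 and 2 for the muscle comparisons, 1 and 1 for fat, and 0 for the rest. Over all 66 pairs of groups, same-numbered arrays correlated at a mean of 0.04 and differently numbered ones at -0.02. In 6 pairs of groups every correlation was above 0.1. Most pairs of groups join different species, so these means cannot decide whether same-numbered arrays of 1 species share birds. Of the 210 differences of a scaffold gene, no called one changed sign; over all alternatives 44 values became called, 24 lost their call and 320 that were called in neither setting changed sign. The chicken arrays alone give no value for the comparisons with other birds.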

Other observations

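DES and MYOZ1 had their lowest value on replicate 1 in all 5 groups of 3 arrays, as did 274 of all genes (4.26%). The other 8 scaffold genes had this in at most 2 groups. In duck hypothalamus, for example, MYOZ1 had -0.68, 0.17 and 1.25, in quail hypothalamus -1.07, -0.10 and 1.04, and in turkey hypothalamus -1.03, -0.15 and 1.34. Replicate 1 had the lowest SD over clones in 4 of these 5 groups, 0.50 in sparrow liver against 1.04 and 1.09 on the other arrays. Whether these values go together was not tested.

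Chicken hypothalamus and chicken liver each fell into pairs of arrays for some scaffold genes. TTN had -0.67 and -0.38 on hypothalamus replicates 1 and 2 but -2.72 and -2.43 on replicates 3 and 4, and ACTN2 and NEB were likewise lower on replicates 3 and 4. In chicken liver TTN had -2.31 and -2.36 on replicates 1 and 2 but -0.98 and -0.74 on replicates 3 and 4, and XIRP1 was likewise lower on replicates 1 and 2. The labels name no batch for these arrays.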
